A study of Mus musculus with 16 samples.

Results

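Lung endothelial cells of mice with a subcutaneous primary tumour (d15) were compared with those of tumour-free mice (d0), over every entry of the deposited expression table. The comparison holds 8 of the 16 RNA sequencing libraries of the series, with 4 libraries in each group. The d15 mice were female C57BL/6N mice implanted under the skin with 1000000 cells of Lewis lung carcinoma, a mouse lung tumour line from the same strain background with a known tendency to seed the lung. The d0 mice are described as wild-type; they are females of that strain without a tumour, and no mock implantation or age is given for any group. The later groups, d22 after resection of the tumour and d36 with metastases, enter the fit and the last comparison only. According to the series design the replicates of a time point were independent biological samples, and the labels do not say whether more than 1 mouse gave a library. Lung endothelial cells were purified by fluorescence-activated cell sorting (the sources used here name neither the antibodies and gate nor the hour at which lungs were taken). RNA was read from 10 ng of total RNA per library.

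Endothelial cells line blood and lymph vessels and differ along the vessel tree. Arteries, veins and lymphatics each have marker genes of their own, and the capillaries of the mouse lung hold general capillary cells and aerocytes, large thin cells that face the alveolar air. Endothelium is in contact with circulating signals: cytokines of the interleukin-6 family act through the receptor subunit gp130 and the transcription factor STAT3 to induce acute-phase genes. Activated venules present adhesion molecules such as P-selectin and VCAM-1, which slow and hold leukocytes and are also known to serve tumour cells.

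Endothelial markers were high in all 8 libraries. The summed level of 19 pan-endothelial genes was 8550 to 9909 RPKM (reads per kilobase of transcript, scaled to library size) at d15 and 8118 to 9185 RPKM at d0. Pecam1 averaged 719 ± 86.8 RPKM at d15 and 672 ± 40.8 RPKM at d0 (SD, n = 4 each, as for all means given with an error), and Cldn5 averaged 1003 ± 219 RPKM at d15 and 1184 ± 75.8 RPKM at d0. Of 12 leukocyte genes found, 6 averaged under 0.1 RPKM over the 8 libraries and 5 between 0.1 and 1 RPKM, Cd53, Cd48, Spi1 and Vav1 among the 6. The other, Lcp1, which codes for the actin-bundling protein L-plastin, averaged 34.2 ± 3.03 RPKM at d15 and 34.5 ± 2.11 RPKM at d0. Approximate depth was 93400000 to 125800000 reads at d15 and 95300000 to 112700000 reads at d0. Across genes, libraries correlated at 0.979 to 0.985 within d15, 0.98 to 0.99 within d0 and 0.97 to 0.982 between the groups, as a description without a test. The first principal component of the 8 libraries held 33.9% of the variance, with scores of 7.55 to 22.3 at d15 and -20.5 to -8.59 at d0. The second held 16.8% and set d0 replicate 1 apart at 23.5, against -17.2 to 7.00 in the other libraries. This library also had the highest summed level of the list of MHC and antigen presentation genes, 15605 RPKM, against 9407 to 9757 RPKM at d15 and 6185 to 8438 RPKM in the other d0 libraries.

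Of 17715 entries, 14303 reached 1 RPKM in 4 or more libraries and were tested with limma at a Benjamini-Hochberg adjusted p of 0.05. At d15, 87 entries rose (0.608% of those tested) and 82 fell (0.573%), together 169 (1.18%). Of these, 24 rose and 20 fell at least 2-fold on the log2(RPKM + 1) scale on which all fold changes are given. The median log2 fold change of all entries was -0.017, and 46.7% were above 0. Of the 169, 166 did not overlap between the libraries of the groups. Among all tested entries, every d15 library was above every d0 library in 764 (5.34%) and below in 992 (6.94%). At an unadjusted p under 0.05, 1039 entries were higher (7.26%) and 1314 lower (9.19%), together 2353 (16.5%).

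The spread estimate is shared over the 4 groups. Without the d36 libraries the fit called 342 entries higher (2.39%) and 310 lower (2.17%), together 4.56% and all 169 among them, and with the 8 d15 and d0 libraries alone it called 262 and 216 (1.83% and 1.51%, together 3.34%). Single libraries weighed on the counts. Without d15 replicates 3, 4, 5 and 6 in turn, 39, 41, 17 and 34 entries were higher and 23, 48, 17 and 20 lower. Without d0 replicates 1, 2, 3 and 4 in turn, 29, 35, 14 and 30 were higher and 27, 25, 10 and 38 lower. Of the 169, 21 passed in all 8 of these fits, of which 11 rose (0.0769%) and 10 fell (0.0699%), and 38 passed in 0 of them. Transcript length moved with the direction. The longest annotated transcript had a median of 4186.5 bases for 70 genes that rose, 2325.5 for 58 that fell and 3169.5 for all 9572 tested genes with a length. With each library's trend on length and GC content removed, 98 of these genes were higher and 82 lower, against 80 and 71 before.

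**Figure D1:**
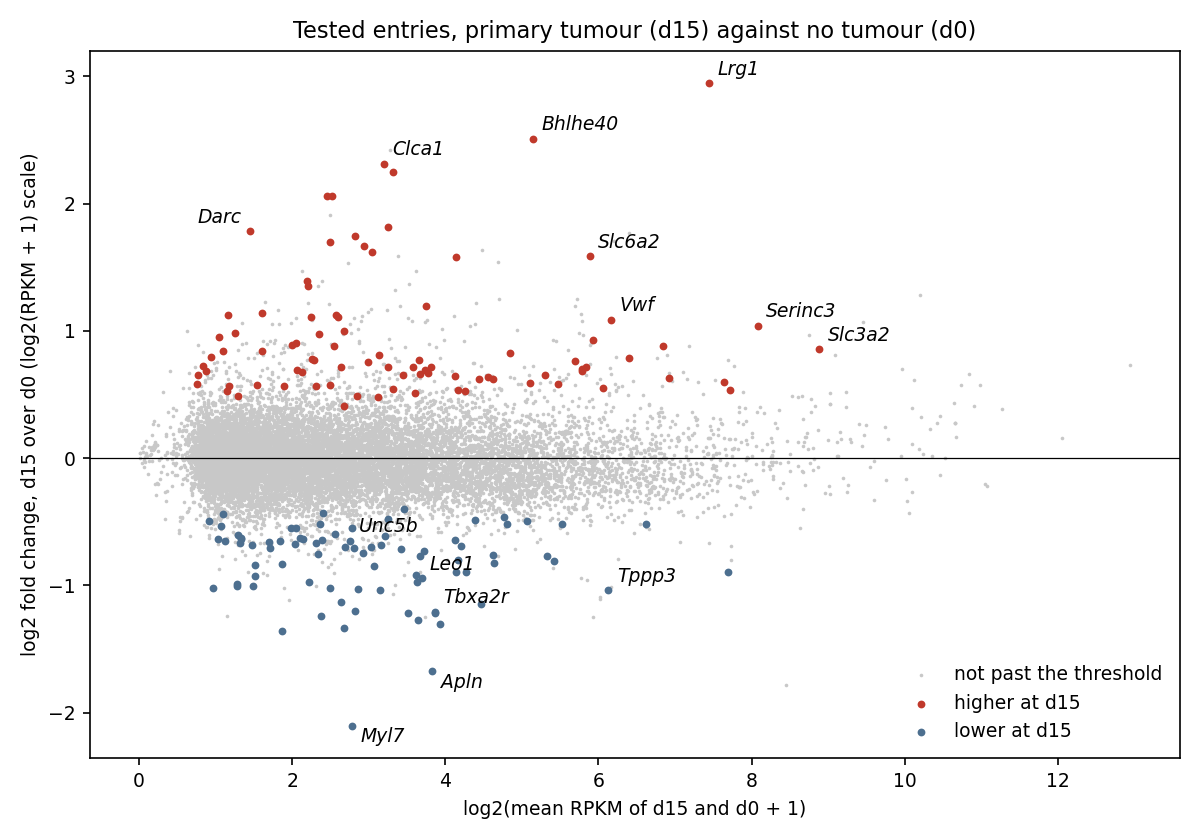
Log2 fold change of d15 over d0 (vertical axis, log2(RPKM + 1) scale) against the mean level of the d15 and d0 libraries (horizontal axis, log2 of RPKM + 1) for the 14303 tested entries. Red points are the 87 entries that rose and blue points the 82 that fell; Lrg1 lies highest at 2.95 and Myl7 lowest at -2.10.

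Genes of the interleukin-6, STAT3 and acute-phase response all had positive fold changes at d15: 28 of 28 tested, with a median of 0.50, against 46.7% and -0.017 over all entries. The members were chosen with earlier results of these data known. Of 32 members found, 1 averaged under 0.1 RPKM over d15 and d0 and 8 between 0.1 and 1 RPKM. The filter counted all 16 libraries, so some of these low members were tested. Of the 28, Lrg1, Osmr and Il4ra passed the test (0.608% of all entries rose). Il4ra is a receptor chain of interleukin-4, which is outside the interleukin-6 family. Every d15 library was above every d0 library in 15 of the 28 (5.34% of all entries). In the fit without d36, 13 of the 28 were higher (2.39% of all entries) and 0 lower. Lrg1, a STAT3 target, codes for a secreted leucine-rich glycoprotein with effects on TGF-beta signals in endothelium. It had 271, 179, 418 and 363 RPKM in the d15 libraries, against 52.0, 33.2, 29.4 and 37.0 RPKM in the d0 libraries, which is a difference of 2.95 ± 0.48 on the log2 scale (SE, adjusted p = 0.0106); brackets below give log2 fold change ± SE. The lowest d15 library was well above the highest d0 library, and the call held in 8 of the 8 fits that leave out a library. The protein-coding gene spans 56119678-56122001 of chromosome 17 (minus strand of mm10).

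Among the receptors of the list was Osmr, the oncostatin M receptor that pairs with gp130. It had 11.9, 19.9, 22.6 and 16.4 RPKM in the d15 libraries, against 10.9, 6.26, 5.63 and 6.00 RPKM in the d0 libraries (1.195 ± 0.25, adjusted p = 0.0297). In d0 replicate 1 it stood close to the lowest d15 library, and the groups did not overlap. Il4ra, the interleukin-4 receptor chain, had 146, 149, 164 and 129 RPKM in the d15 libraries, against 108, 65.4, 70.6 and 77.7 RPKM in the d0 libraries (0.88 ± 0.21, adjusted p = 0.0461). The calls of Osmr and Il4ra held in 2 and 1 of the 8 fits that leave out a library, with adjusted p up to 0.103 and 0.148. Il6st, the gene of gp130 itself, averaged 18.3 ± 4.49 RPKM at d15 and 10.1 ± 2.23 RPKM at d0 and did not pass (0.79 ± 0.22, adjusted p = 0.0836), while its adjusted p was 0.00988 without d36. Lifr, which pairs with gp130 for leukaemia inhibitory factor, averaged 13.96 ± 2.18 RPKM at d15 and 9.31 ± 1.42 RPKM at d0 (adjusted p = 0.156, and 0.045 without d36). The receptor chain Il6ra stayed under the filter, at 0.336 RPKM in d15 and 0.232 RPKM in d0 libraries on average. Il6 itself averaged 0.239 ± 0.126 RPKM at d15 and 0.0121 ± 0.0153 RPKM at d0, also under the filter, with its lowest d15 library at 0.13 RPKM and its highest d0 library at 0.032 RPKM. These 4 were named after their values were seen.

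Downstream, Socs3, the feedback inhibitor that STAT3 induces, had 11.8, 8.50, 22.5 and 16.02 RPKM in the d15 libraries, against 6.02, 3.27, 3.11 and 3.84 RPKM in the d0 libraries. Each d15 library was above all d0 libraries, with a log2 fold change of 1.59 ± 0.65, adjusted p = 0.231, and the adjusted p was 0.00301 without d36. Stat3 averaged 4.38 ± 0.534 RPKM at d15 and 3.03 ± 0.156 RPKM at d0 (0.41 ± 0.12, adjusted p = 0.105), with no overlap between the groups and an adjusted p of 0.0416 without d36. Cebpd, a transcription factor of the acute phase, averaged 13.8 ± 4.94 RPKM at d15 and 5.54 ± 2.76 RPKM at d0 and overlapped between the groups, since d0 replicate 1 exceeded d15 replicate 4. The metallothionein gene Mt1 had 5.95, 5.11, 5.28 and 5.35 RPKM in the d15 libraries, against 1.86, 2.96, 1.31 and 1.204 RPKM in the d0 libraries, with an adjusted p of 0.246, and of 0.00224 without d36. Socs3, Stat3, Cebpd and Mt1 were named after their values were seen. The most abundant members that did not pass were Lbp, Jak1 and Cish. Lbp, which binds bacterial lipopolysaccharide, averaged 96.8 ± 8.41 RPKM at d15 and 69.0 ± 11.2 RPKM at d0 with no overlap (adjusted p = 0.12). Jak1, a kinase of the cytokine receptors, averaged 47.0 ± 7.84 RPKM at d15 and 35.7 ± 5.72 RPKM at d0 and overlapped. Cish, a feedback inhibitor mainly of STAT5, averaged 43.4 ± 1.66 RPKM at d15 and 39.2 ± 5.25 RPKM at d0 and overlapped too (log2 fold change 0.15 ± 0.14, adjusted p = 0.631).

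Among acute-phase proteins, Cfb, the complement factor B of the alternative pathway, rose. It had 7.54, 13.0, 13.2 and 12.2 RPKM in the d15 libraries, against 2.71, 2.27, 3.19 and 3.97 RPKM in the d0 libraries, a log2 fold change of 1.62 ± 0.30, adjusted p = 0.0216, with d15 replicate 3 the lowest of its group, and passed in 3 of the 8 fits (adjusted p up to 0.0733). Cfb spans 34856374-34862518 of chromosome 17 (minus strand of mm10). Saa3 averaged 0.0101 RPKM at d15 and 0.00882 RPKM at d0, so this serum amyloid gene was near 0 in both. Lcn2, lipocalin-2, averaged 2.40 ± 1.71 RPKM at d15 and 0.707 ± 0.315 RPKM at d0 without overlap (adjusted p = 0.212). Serpina3n, a protease inhibitor, averaged 0.962 ± 0.834 RPKM at d15 and 0.174 ± 0.125 RPKM at d0 without overlap (adjusted p = 0.484). These 3 were likewise named after their values were seen.

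**Figure D2:**
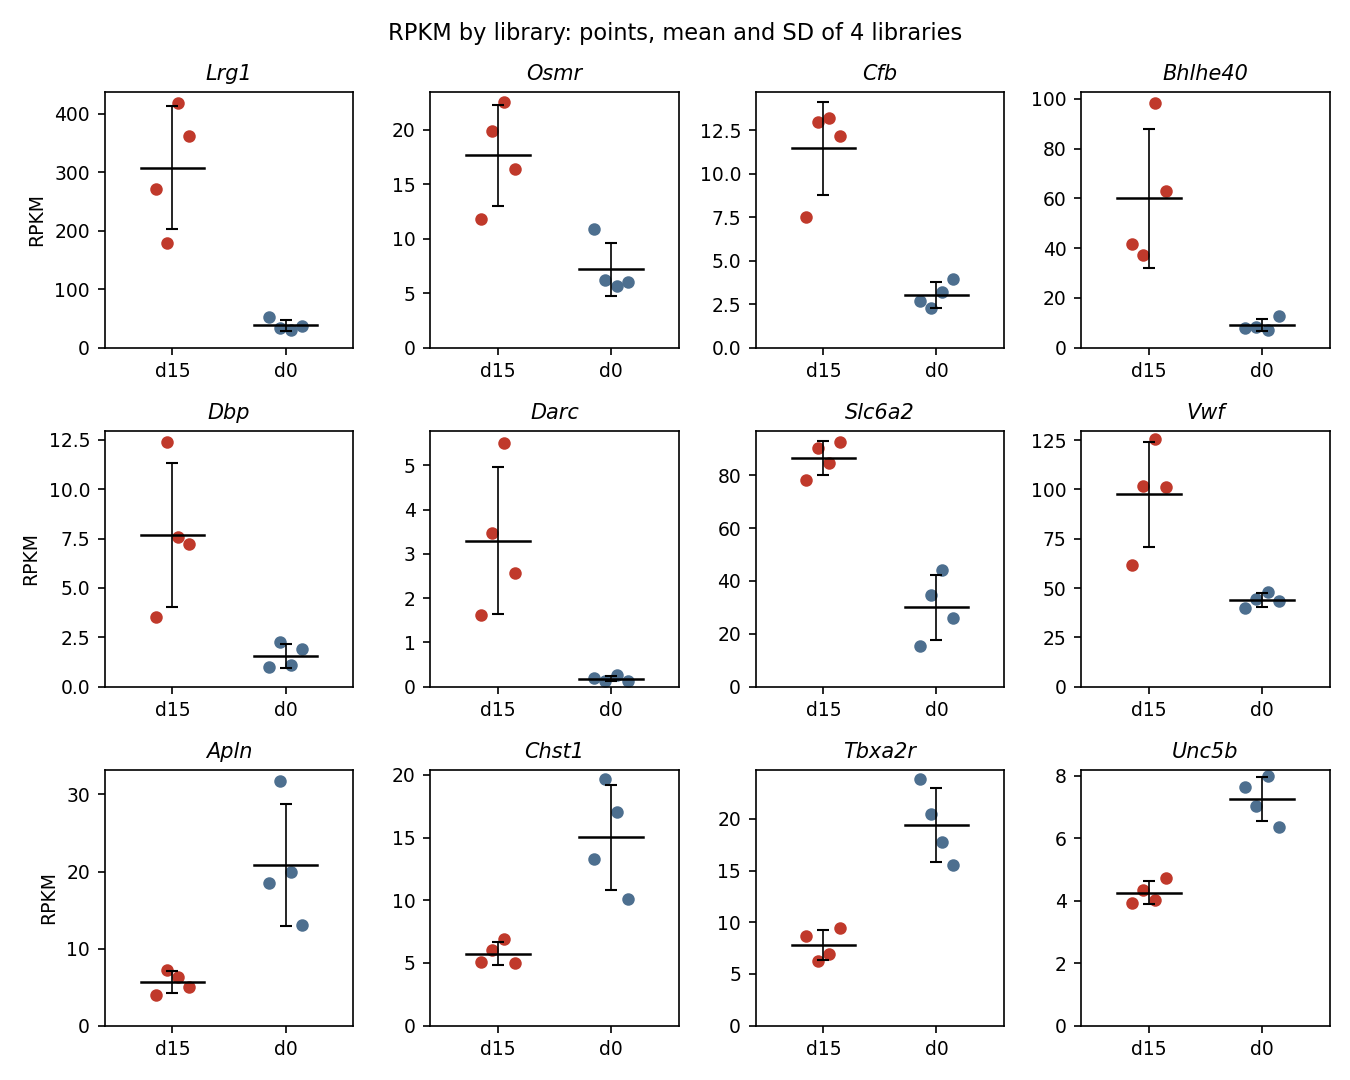
RPKM (vertical axes, linear and starting at 0) of 12 genes in the 4 d15 libraries (red) and the 4 d0 libraries (blue), with the mean and SD of each group as black lines. In all 12 genes the groups do not overlap, as the rule for naming them required. Lrg1 was 179 to 418 RPKM at d15 and 29.4 to 52.0 RPKM at d0. Apln was 3.94 to 7.24 RPKM at d15 and 13.0 to 31.8 RPKM at d0.

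The upstream sequences of 2 genes of this list are shown because STAT3 is known to bind the letters TTCNNNGAA, in which N is any base. The sequences are the 250 bases before the RefSeq start of each gene (GRCm38.p6), written 5′ to 3′ along the gene's strand, with a match in capitals. The motif reads the same on both strands.
Lrg1 (chr17:56121947-56122196, minus strand): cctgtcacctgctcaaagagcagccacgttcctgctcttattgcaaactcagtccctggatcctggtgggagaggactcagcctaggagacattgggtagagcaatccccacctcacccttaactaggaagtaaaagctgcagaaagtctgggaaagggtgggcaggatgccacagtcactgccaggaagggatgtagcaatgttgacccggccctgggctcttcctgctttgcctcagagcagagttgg
Socs3 (chr11:117969367-117969616, minus strand): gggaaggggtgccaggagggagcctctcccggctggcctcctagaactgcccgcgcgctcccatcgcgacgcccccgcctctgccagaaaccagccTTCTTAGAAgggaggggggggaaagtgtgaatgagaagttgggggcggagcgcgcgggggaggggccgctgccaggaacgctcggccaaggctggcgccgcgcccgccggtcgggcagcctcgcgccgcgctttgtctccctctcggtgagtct
Socs3 held a match that begins 154 bases before the RefSeq start, and Lrg1 held none in this window. Gene spans in the GENCODE M21 annotation differ from these starts. That of Socs3 (117966079-117970047) contains its whole window, and that of Lrg1 (56119678-56122001) overlaps its window. Of 24 members of the list with a sequence, 2 held a match, Socs3 and Bcl6 (8.33%). The share was 7.02% among all 32851 upstream windows. A listed gene counted when any of its windows held a match, whereas the share over all windows is of single windows. The same holds for the motifs below. Bcl6, a repressor that STAT3 can induce, averaged 4.43 ± 1.78 RPKM at d15 and 3.86 ± 1.10 RPKM at d0 and overlapped between the groups.

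Venous genes likewise all had positive fold changes; in these bulk samples more cells of a type and more RNA per cell cannot be told apart, nor can fewer cells and less RNA per cell. The 11 tested members had a median of 0.70, and Darc, Slc6a2 and Vwf passed (0.608% of all entries rose). Without d36, 8 of the 11 were called higher (2.39% of all entries). In 9 of the 11, every d15 library was above every d0 library (5.34% of all entries). Darc, the older symbol of Ackr1, the receptor of venules that binds many chemokines, had 1.62, 3.47, 5.51 and 2.58 RPKM in the d15 libraries, against 0.206, 0.134, 0.253 and 0.137 RPKM in the d0 libraries (1.78 ± 0.38, adjusted p = 0.0324). Its mean at d15 was 18.1 times that at d0, where no library reached 0.3 RPKM. Slc6a2, the noradrenaline transporter, by which lung endothelium clears that amine, had 78.0, 90.4, 84.8 and 92.4 RPKM in the d15 libraries, against 15.5, 34.9, 44.0 and 25.9 RPKM in the d0 libraries (1.58 ± 0.37, adjusted p = 0.0458). Every d15 library exceeded every d0 library, and d0 replicate 1 was the lowest. Vwf, von Willebrand factor, the adhesive protein for platelets that endothelium stores in Weibel-Palade bodies, had 61.5, 102, 125 and 101 RPKM in the d15 libraries, against 39.9, 44.6, 48.2 and 43.4 RPKM in the d0 libraries (1.09 ± 0.22, adjusted p = 0.0261). Replicate 3 was the lowest d15 library for Darc, Slc6a2 and Vwf. With 1 library left out at a time, Darc, Slc6a2 and Vwf passed in 1, 0 and 1 of 8 fits, with adjusted p up to 0.101, 0.111 and 0.0839.

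Other venous members had values in the same direction without passing. Selp, the gene of P-selectin, had 3.43, 6.06, 9.22 and 6.68 RPKM in the d15 libraries, against 1.36, 2.23, 1.66 and 1.87 RPKM in the d0 libraries (1.35 ± 0.36, adjusted p = 0.0777, and 0.00983 without d36) and was named after its values were seen. Vcam1 averaged 16.9 ± 4.07 RPKM at d15 and 7.58 ± 2.13 RPKM at d0 with no overlap (adjusted p = 0.135, and 0.0198 without d36). Nr2f2, the transcription factor of venous identity, averaged 3.55 ± 0.562 RPKM at d15 and 1.82 ± 0.575 RPKM at d0 (adjusted p = 0.0836) and was also named after its values were seen. Prss23 averaged 93.6 ± 12.9 RPKM at d15 and 62.5 ± 2.17 RPKM at d0 without overlap (adjusted p = 0.267). Ephb4, the venous receptor of ephrin-B2, was nearly level, averaging 56.9 ± 8.54 RPKM at d15 and 50.1 ± 8.89 RPKM at d0, with a log2 fold change of 0.19 ± 0.13, adjusted p = 0.514.

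Aerocyte genes all had negative fold changes at d15: 11 of 11 tested, with a median of -0.94. Of these, Apln and Chst1 passed (0.573% of all entries fell), and 8 were called lower without d36 (2.17% of all entries). In 8 of the 11, every d15 library was below every d0 library (6.94% of all entries). Apln codes for the peptide apelin, which in the mouse lung marks aerocytes. It had 3.94, 7.24, 6.36 and 5.03 RPKM in the d15 libraries, against 18.5, 31.8, 19.9 and 13.0 RPKM in the d0 libraries, a log2 fold change of -1.67 ± 0.35, adjusted p = 0.0324. Apln spans 48025146-48034853 of chromosome X (minus strand of mm10). Chst1, a sulphotransferase of glycans, had 5.07, 6.02, 6.90 and 5.04 RPKM in the d15 libraries, against 13.3, 19.7, 17.0 and 10.1 RPKM in the d0 libraries (-1.22 ± 0.25, adjusted p = 0.0305). In both genes d0 replicate 2 was highest and d0 replicate 4 lowest of the d0 group, and d0 replicate 4 still exceeded every d15 library. Left-out libraries mattered here too: Apln and Chst1 passed in 2 and 1 of the 8 fits, with adjusted p up to 0.0954 and 0.103.

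The other aerocyte genes missed the threshold in the fit to all 16 libraries. Car4, the membrane carbonic anhydrase of the alveolar capillary, had 32.2, 40.7, 41.5 and 31.2 RPKM in the d15 libraries, against 68.7, 85.8, 74.5 and 56.1 RPKM in the d0 libraries (-0.94 ± 0.27, adjusted p = 0.0906, and 0.00756 without d36). Fibin averaged 35.3 ± 12.05 RPKM at d15 and 84.5 ± 26.9 RPKM at d0 (adjusted p = 0.0707, and 0.0145 without d36). Car4 and Fibin were named after their values were seen, and in both the groups did not overlap. Ednrb, the endothelin B receptor, averaged 39.96 ± 11.4 RPKM at d15 and 87.5 ± 27.6 RPKM at d0 (adjusted p = 0.0799, and 0.0182 without d36). Kdr, the main VEGF receptor, averaged 67.2 ± 13.6 RPKM at d15 and 91.5 ± 15.9 RPKM at d0, and Prx averaged 115 ± 24.9 RPKM at d15 and 157 ± 22.8 RPKM at d0. Kdr and Prx overlapped and missed the threshold in both fits (adjusted p of 0.178 and 0.173 with d36).

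Other vessel classes had fewer calls. Of 12 general capillary genes, 0 passed the limma test in either direction, 2 were higher and 0 lower at an unadjusted p under 0.05 (7.26% and 9.19% of all entries), and the median was 0.14. Fold changes were positive in 11 of the 12 (46.7% of all entries). The summed level of the list was 2262 to 2548 RPKM at d15 and 1970 to 2247 RPKM at d0. Aplnr, the apelin receptor carried by these cells, was the negative member. It averaged 75.5 ± 13.6 RPKM at d15 and 108 ± 16.2 RPKM at d0 (-0.52 ± 0.29, adjusted p = 0.396). Its d15 libraries all lay below the d0 libraries. Lpl, lipoprotein lipase, averaged 28.7 ± 8.56 RPKM at d15 and 11.6 ± 3.55 RPKM at d0 and was the member called without d36 (adjusted p = 0.00833), named after its values were seen. Of 14 arterial genes, 13 had positive fold changes (46.7% of all entries) and the median was 0.39. The member that passed was Unc5b, a netrin receptor of arterial and sprouting endothelium, which fell (0.573% of all entries). Of 10 lymphatic genes in the list only 4 were found among the entries: Fgl2, Lyve1, Flt4 and Ccl21a. Prox1 and Pdpn were among those not found. All 4 were tested and had positive fold changes (46.7% of all entries), with a median of 0.89. Fgl2 passed (0.608% of all entries rose). Lyve1 averaged 187 ± 47.2 RPKM at d15 and 99.9 ± 17.7 RPKM at d0 without overlap (adjusted p = 0.171, and 0.0107 without d36). Fgl2, a fibrinogen-like protein that can act as a prothrombinase, had 4.75, 5.49, 5.95 and 5.70 RPKM in the d15 libraries, against 1.32, 2.55, 2.01 and 2.27 RPKM in the d0 libraries (1.11 ± 0.22, adjusted p = 0.0261), and passed in 3 of the 8 fits (adjusted p up to 0.0871).

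**Figure D3:**
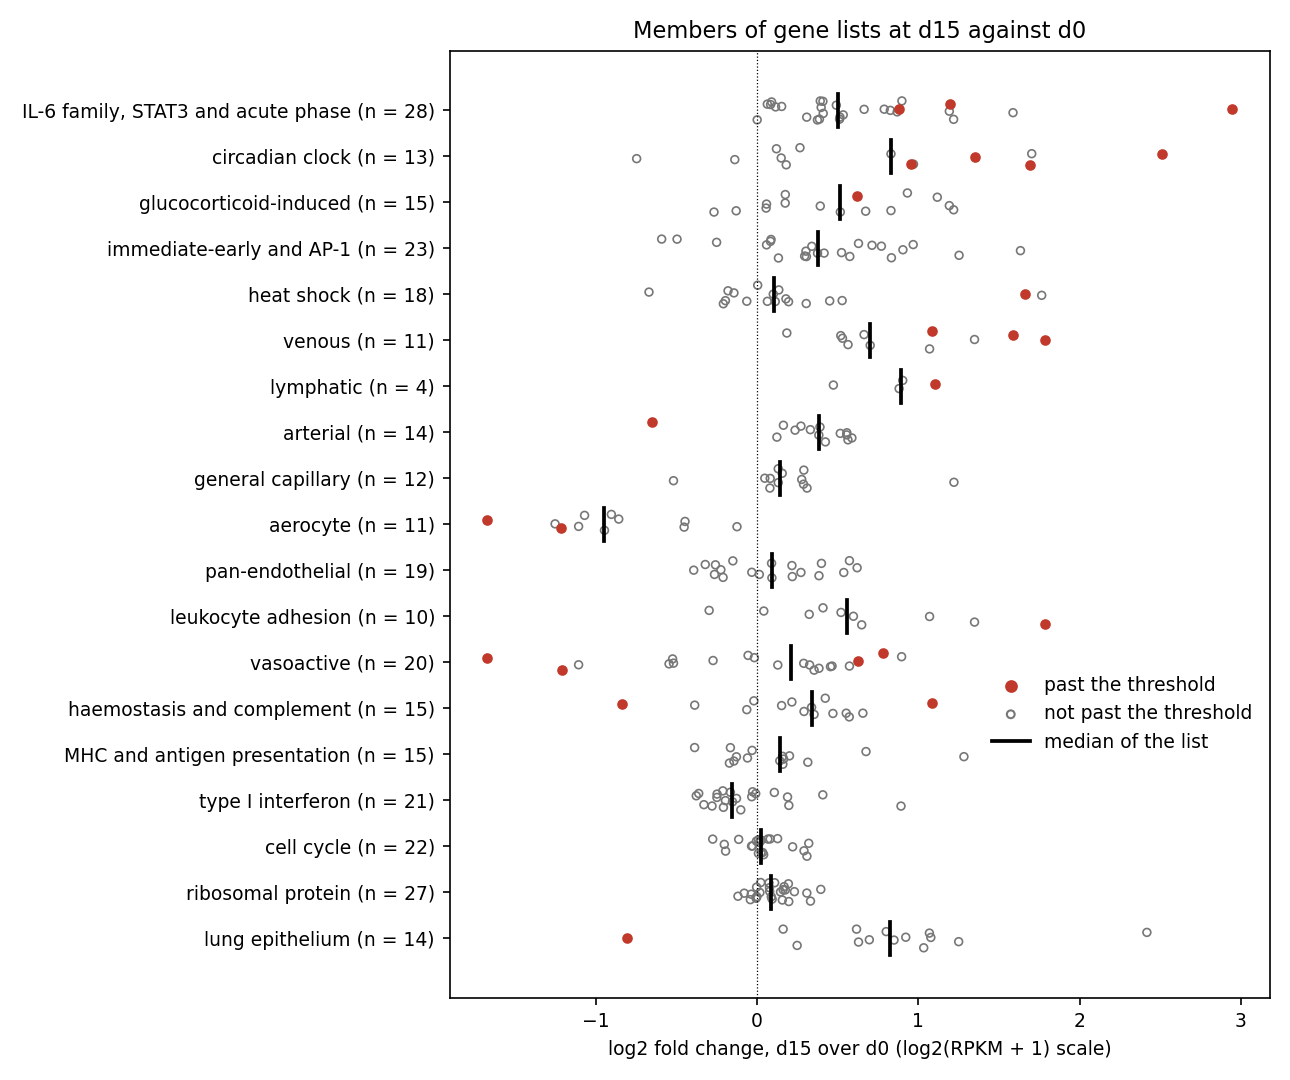
Log2 fold changes of d15 over d0 (horizontal axis, log2(RPKM + 1) scale) for the tested members of 19 gene lists (rows, n = tested members). Filled red points passed the test, open grey points did not, and black bars are list medians: -0.94 for aerocyte, 0.70 for venous, 0.50 for interleukin-6 and 0.02 for cell cycle genes.

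Leukocyte adhesion genes were mostly above 0. Of 10 tested, 9 had positive fold changes (46.7% of all entries) and the median was 0.56. Darc, which is also in the venous list, passed (0.608% of all entries rose), so the 2 lists are not independent. Without d36, 4 were called higher (2.39% of all entries). Icam1, a ligand of leukocyte integrins, averaged 40.2 ± 11.7 RPKM at d15 and 27.1 ± 4.03 RPKM at d0 and overlapped (0.52 ± 0.27, adjusted p = 0.349). F11r, the junctional adhesion molecule JAM-A, was the negative member, averaging 139 ± 16.6 RPKM at d15 and 170.0 ± 12 RPKM at d0 (adjusted p = 0.19). Cd47 averaged 73.2 ± 8.94 RPKM at d15 and 58.5 ± 9.17 RPKM at d0 and overlapped.

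In haemostasis, Vwf rose and Plau fell among 15 tested genes (0.608% and 0.573% of all entries), with a list median of 0.34. Plau, the urokinase that activates plasminogen, had 0.676, 0.958, 1.23 and 1.34 RPKM in the d15 libraries, against 2.81, 3.37, 2.79 and 1.77 RPKM in the d0 libraries (-0.84 ± 0.19, adjusted p = 0.0458), and passed in 1 of the 8 fits (adjusted p up to 0.134). Its receptor Plaur was level, averaging 142 ± 11.5 RPKM at d15 and 144 ± 13.1 RPKM at d0. Plat, the tissue-type activator, averaged 84.5 ± 18.5 RPKM at d15 and 57.3 ± 24.9 RPKM at d0 and overlapped. Thbd, thrombomodulin, was abundant and overlapped, averaging 925 ± 131 RPKM at d15 and 827 ± 35.6 RPKM at d0.

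Vasoactive genes moved both ways. Of 20 tested, Edn1 and Ptgs1 rose (0.608% of all entries) and Apln and Tbxa2r fell (0.573%), with a median of 0.21. Edn1, the precursor of the vasoconstrictor endothelin-1, had 161, 143, 155 and 124 RPKM in the d15 libraries, against 91.9, 82.7, 92.9 and 108 RPKM in the d0 libraries (0.63 ± 0.13, adjusted p = 0.0332). Its receptor gene Ednrb had lower values, as given above with the aerocyte genes. In the prostanoid branch, Ptgs1, cyclooxygenase-1, had 83.2, 119, 137 and 87.2 RPKM in the d15 libraries, against 59.3, 51.6, 61.2 and 70.5 RPKM in the d0 libraries (0.78 ± 0.18, adjusted p = 0.0395). Tbxa2r, the receptor of thromboxane A2, which constricts vessels and activates platelets, had 8.65, 6.27, 6.95 and 9.46 RPKM in the d15 libraries, against 23.9, 20.5, 17.8 and 15.5 RPKM in the d0 libraries (-1.21 ± 0.20, adjusted p = 0.0116). In the fits without 1 library, Edn1, Ptgs1 and Tbxa2r passed in 2, 1 and 8 of 8, with adjusted p up to 0.101, 0.119 and 0.0462. Tbxas1, the synthase that makes thromboxane A2, averaged 0.973 ± 0.138 RPKM at d15 and 2.07 ± 0.509 RPKM at d0 and fell by 0.63 (SE 0.14, adjusted p = 0.0457). It passed in 0 of the 8 fits, with adjusted p up to 0.111, and was named after its values were seen. Ptgis, the prostacyclin synthase of the same branch, averaged 21.1 ± 3.76 RPKM at d15 and 16.1 ± 1.15 RPKM at d0 and overlapped (adjusted p = 0.264). Ace, the angiotensin-converting enzyme, averaged 504 ± 30.6 RPKM at d15 and 369 ± 61.9 RPKM at d0 without overlap (adjusted p = 0.111), and Ramp2, the adrenomedullin coreceptor subunit, averaged 2416 ± 295 RPKM at d15 and 1637 ± 340.2 RPKM at d0 with overlap.

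Unc5b, the netrin receptor of the arterial list, had 3.93, 4.35, 4.04 and 4.73 RPKM in the d15 libraries, against 7.64, 7.04, 7.98 and 6.37 RPKM in the d0 libraries (-0.65 ± 0.11, adjusted p = 0.0106), and it passed in 8 of the 8 fits. Ntn1, netrin-1, had 19.0, 17.5, 22.5 and 22.1 RPKM in the d15 libraries, against 13.4, 10.7, 13.95 and 12.2 RPKM in the d0 libraries (0.65 ± 0.15, adjusted p = 0.0464), and it was named after its values were seen and passed in 0 of the 8 fits. Neither gene overlapped between the groups.

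Clock genes had 4 calls. Of 13 tested, Bhlhe40, Dbp, Nr1d2 and Per3 rose (0.608% of all entries), 0 fell and the median was 0.83. Without d36, 7 were called higher (2.39% of all entries). The core clock activator is the dimer of Arntl and Clock, which drives the repressors Per, Cry, Nr1d1 and Nr1d2 and the output factor Dbp. Bhlhe40, a repressor of that dimer that also answers to cytokines and hypoxia, had 41.7, 37.0, 98.1 and 62.9 RPKM in the d15 libraries, against 8.09, 8.41, 7.25 and 12.9 RPKM in the d0 libraries (2.51 ± 0.47, adjusted p = 0.0216). Dbp had 3.53, 12.4, 7.58 and 7.22 RPKM in the d15 libraries, against 0.982, 2.24, 1.07 and 1.93 RPKM in the d0 libraries (1.69 ± 0.33, adjusted p = 0.0254), and d15 replicate 3 was its lowest d15 library. Per3 had 1.001, 1.67, 2.28 and 1.98 RPKM in the d15 libraries, against 0.243, 0.570, 0.315 and 0.445 RPKM in the d0 libraries (0.95 ± 0.19, adjusted p = 0.0263). Nr1d2 had 2.45, 5.06, 8.43 and 6.99 RPKM in the d15 libraries, against 1.37, 2.62, 0.903 and 1.27 RPKM in the d0 libraries (1.35 ± 0.26, adjusted p = 0.0233); d15 replicate 3 lay under d0 replicate 2, so its groups overlapped. Bhlhe40, Dbp, Per3 and Nr1d2 passed in 4, 3, 2 and 3 of the 8 fits without a library, with adjusted p up to 0.0752, 0.0871, 0.0876 and 0.0871.

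The other clock members are given by their values. Nr1d1, at the highest level of the list, had 62.7, 169, 119.8 and 86.7 RPKM in the d15 libraries, against 13.6, 53.8, 25.1 and 47.9 RPKM in the d0 libraries (1.70 ± 0.41, adjusted p = 0.0552, and 0.013 without d36). Per1 averaged 8.79 ± 2.65 RPKM at d15 and 4.47 ± 1.41 RPKM at d0 with overlap (adjusted p = 0.135). Arntl was the member furthest below 0, with 6.40, 1.97, 2.95 and 3.69 RPKM in the d15 libraries, against 7.61, 5.97, 7.37 and 5.396 RPKM in the d0 libraries (-0.75 ± 0.24, adjusted p = 0.131), and d15 replicate 3 lay within the d0 range. It was named after its values were seen. Gm129, now Ciart, a clock-controlled repressor, averaged 21.4 ± 2.39 RPKM at d15 and 19.4 ± 3.88 RPKM at d0 and overlapped. Clock genes follow the hour of the day, which was not given for these mice, and its part in these values was not tested.

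The upstream sequences of Dbp and Per3 are shown because the output factors of the Dbp family bind the D-box, TTATGTAA, and the Arntl dimer binds the E-box, CACGTG. They are given as above, both strands were searched, and capitals mark any of the motifs searched.
Dbp (chr7:45704997-45705246, plus strand): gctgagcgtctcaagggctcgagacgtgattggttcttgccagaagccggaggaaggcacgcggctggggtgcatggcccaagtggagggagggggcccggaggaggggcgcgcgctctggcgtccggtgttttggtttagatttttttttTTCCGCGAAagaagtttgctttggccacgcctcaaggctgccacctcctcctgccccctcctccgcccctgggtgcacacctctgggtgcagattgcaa
Per3 (chr4:151044666-151044915, minus strand): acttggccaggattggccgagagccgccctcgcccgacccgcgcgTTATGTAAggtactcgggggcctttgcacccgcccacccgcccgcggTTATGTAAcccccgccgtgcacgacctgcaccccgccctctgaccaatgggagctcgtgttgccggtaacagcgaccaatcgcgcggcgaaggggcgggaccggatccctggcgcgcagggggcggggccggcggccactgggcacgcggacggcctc
Per3 held the D-box at 205 and at 158 bases before its start, and neither window held an E-box. The capitals in Dbp are a match to the STAT letters, 99 bases before the RefSeq start. The GENCODE M21 span of Dbp (45705088-45710203) overlaps this window and contains the match. Among 11 clock genes with a sequence, 1 held a D-box (9.09%, against 0.819% of all windows) and 3 held an E-box (27.3%, against 6.02%): Per1, Cry1 and Ciart. Cry1 averaged 1.03 ± 0.247 RPKM at d15 and 0.687 ± 0.166 RPKM at d0 with an adjusted p of 0.327. The matches are a description of these letters, and no overlap between motifs occurred in the printed windows.

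Among 15 genes induced by glucocorticoids, Klf9 rose (0.608% of all entries), 0 fell and the median was 0.52. In the fit without d36, 6 were higher (2.39% of all entries). Klf9, a transcription factor that glucocorticoids induce directly, had 23.7, 30.3, 24.6 and 22.5 RPKM in the d15 libraries, against 15.3, 17.3, 16.5 and 15 RPKM in the d0 libraries (0.62 ± 0.13, adjusted p = 0.0297), and passed in 0 of the 8 fits (adjusted p up to 0.0871). Zbtb16, another direct target, averaged 22.6 ± 4.15 RPKM at d15 and 9.84 ± 1.34 RPKM at d0 without overlap (adjusted p = 0.0945, and 0.00756 without d36), and it was named after its values were seen. Sgk1, a kinase among these targets, averaged 238 ± 90.2 RPKM at d15 and 277 ± 61.2 RPKM at d0 and overlapped. Tsc22d3, the leucine zipper protein GILZ, averaged 111 ± 15.2 RPKM at d15 and 101 ± 29.6 RPKM at d0 and overlapped. Nfkbia, the inhibitor of NF-kB, averaged 707 ± 140.1 RPKM at d15 and 490.0 ± 67.5 RPKM at d0 with overlap. Of the list, Per1, Cebpd, Mt1 and Mt2 are also members of the clock or interleukin-6 lists.

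Stress genes were mixed. Of 18 heat shock genes 1 rose and 0 fell (0.608% and 0.573% of all entries), and the median was 0.11. Hspa1b, an inducible Hsp70 chaperone, had 6.84, 7.52, 16.4 and 12.6 RPKM in the d15 libraries, against 3.01, 2.47, 2.51 and 2.19 RPKM in the d0 libraries (1.66 ± 0.22, adjusted p = 0.00302) and passed in 8 of the 8 fits. Its near-identical neighbour Hspa1a had 90.4, 57.9, 195 and 185 RPKM in the d15 libraries, against 49.8, 29.2, 28.1 and 31.9 RPKM in the d0 libraries (1.77 ± 0.46, adjusted p = 0.0683), and reads may be shared between the 2 genes. Serpinh1, a chaperone of collagen, averaged 135 ± 22.8 RPKM at d15 and 212 ± 9.14 RPKM at d0 (adjusted p = 0.0656, and 0.0107 without d36), and Hsp90ab1 overlapped. The heat shock element, searched on both strands, stood upstream of 2 of 13 heat shock genes with a sequence, Hspd1 and Hspe1 (15.4%, against 0.466% of all windows), which lie head to head and share part of this window. Both overlapped between the groups, with adjusted p of 0.945 and 0.995.

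Of 23 immediate-early and AP-1 genes, which respond to cytokines and also rise while tissue is dissociated, 0 passed the limma test and the median was 0.38. At an unadjusted p under 0.05, 4 were higher and 1 lower (7.26% and 9.19% of all entries), and 7 were called higher without d36 (2.39% of all entries). Their summed level was 1412 to 2492 RPKM at d15 and 1157 to 1650 RPKM at d0, and their part in the rises above was not tested. Atf3 had 23.6, 27.97, 51.2 and 29 RPKM in the d15 libraries, against 9.35, 10.2, 7.79 and 10.8 RPKM in the d0 libraries (1.63 ± 0.52, adjusted p = 0.124, and 0.00105 without d36) and was named after its values were seen. Ier3, at higher levels, averaged 572 ± 182 RPKM at d15 and 287 ± 56.4 RPKM at d0 without overlap (adjusted p = 0.126). Jun overlapped widely, averaging 364 ± 182 RPKM at d15 and 288 ± 164 RPKM at d0, and Zfp36, which destabilises cytokine messages, averaged 262 ± 72.8 RPKM at d15 and 149.8 ± 16.7 RPKM at d0 without overlap (adjusted p = 0.452, and 0.0228 without d36).

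**Figure D4:**
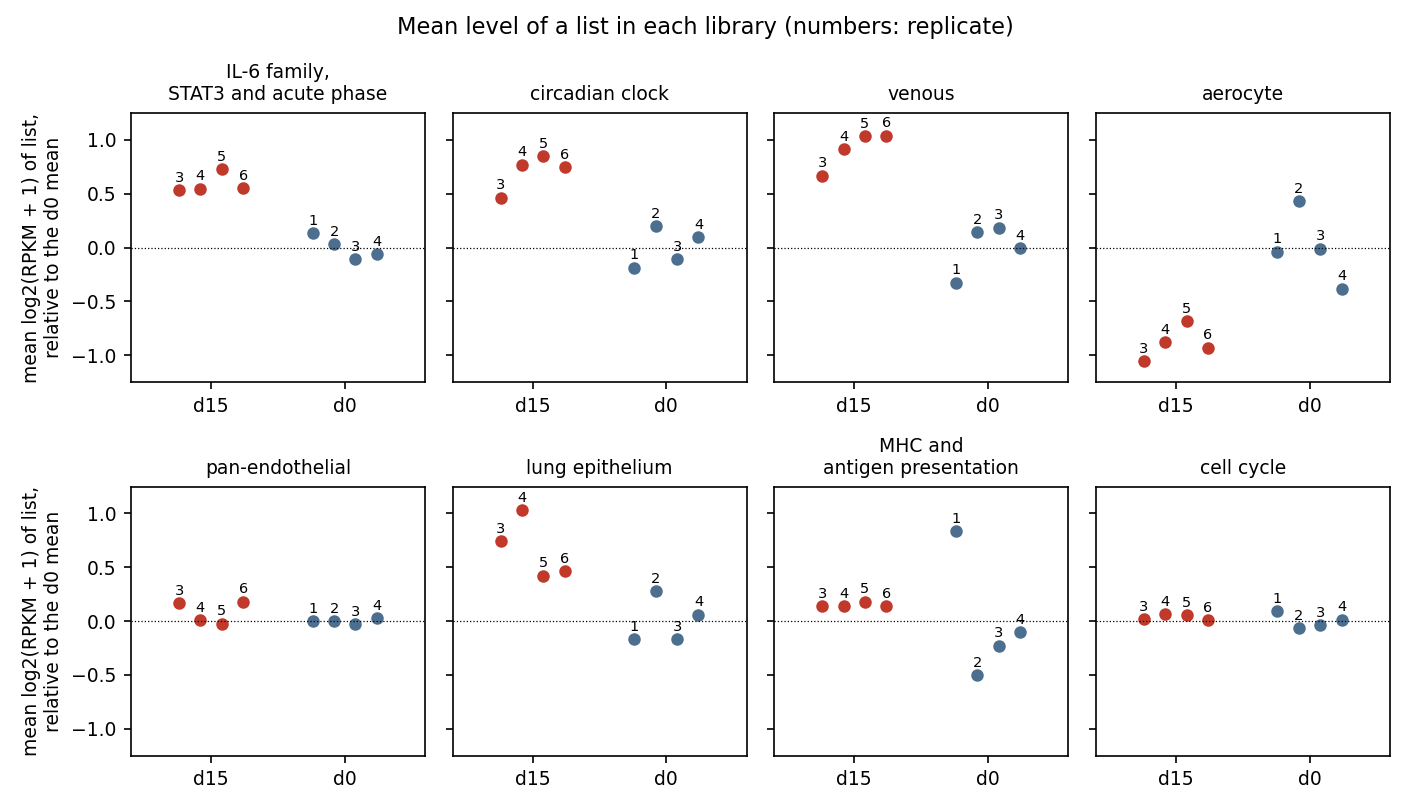
Mean log2(RPKM + 1) of 8 gene lists in each d15 (red) and d0 (blue) library, relative to the mean of the 4 d0 libraries (vertical axes), with replicate numbers beside the points. The groups part in the interleukin-6, clock, venous, aerocyte and lung epithelium lists and overlap in the pan-endothelial, MHC and cell cycle lists, where d0 replicate 1 stands highest for MHC genes with a summed level of 15605 RPKM.

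Among the other large rises, Clca1 as the table lists it had the smallest p. This symbol has been used for more than 1 gene of a family that regulates chloride channels, so its position is not given. It had 13.3, 13.0, 21.5 and 9.83 RPKM in the d15 libraries, against 2.45, 1.77, 2.05 and 1.75 RPKM in the d0 libraries (2.31 ± 0.24, adjusted p = 0.000222), with every d15 library far above the d0 libraries, and passed in 8 of the 8 fits. Galnt15, an enzyme that starts O-linked glycans, had 1.54, 4.08, 3.47 and 3.78 RPKM in the d15 libraries, against 0.733, 1.10, 0.815 and 0.791 RPKM in the d0 libraries (1.14 ± 0.22, adjusted p = 0.0254). Samd5 averaged 7.18 ± 1.68 RPKM at d15 and 2.71 ± 0.514 RPKM at d0 (1.13 ± 0.22, adjusted p = 0.0263). Serinc3, a membrane protein of the serine incorporator family, had 399, 418, 381 and 259.8 RPKM in the d15 libraries, against 158, 214, 188 and 143 RPKM in the d0 libraries (1.04 ± 0.22, adjusted p = 0.0332). Tha1, a threonine aldolase, averaged 7.55 ± 1.12 RPKM at d15 and 3.28 ± 0.616 RPKM at d0 (1.000 ± 0.18, adjusted p = 0.0151) and passed in 7 of the 8 fits. Galnt15, Samd5 and Serinc3 passed in 2, 1 and 1 of the 8 fits, with adjusted p up to 0.0817, 0.0824 and 0.0991. Gm13889, 7330403C04Rik and Rnu3b4, a U3 small nucleolar RNA gene, rose by 1.11, 1.81 and 1.13. Their groups did not overlap, as the naming rule required. U3 genes occur in near-identical copies, so reads of Rnu3b4 may be shared.

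Some rises and falls went along with markers of other cells. Scgb3a1, a secretoglobin of airway epithelium, had 20.8, 41.3, 20.7 and 19.5 RPKM in the d15 libraries, against 9.12, 6.61, 8.77 and 5.86 RPKM in the d0 libraries (1.58 ± 0.21, adjusted p = 0.00302) and passed in 8 of the 8 fits; d15 replicate 4 stood far above the others. Of 14 tested genes of lung epithelium, 13 had positive fold changes (46.7% of all entries) with a median of 0.83, and in 7 every d15 library was above every d0 library (5.34% of all entries). The summed level of the list was 1312 to 3491 RPKM at d15 and 816 to 2004 RPKM at d0, and the part of such RNA in the result was not tested. Sftpc, of surfactant, had 619, 1827, 673 and 779 RPKM in the d15 libraries, against 352, 494, 356 and 492 RPKM in the d0 libraries (adjusted p = 0.167), with d15 replicate 4 again highest. Scgb1a1, of club cells, had 2729.5, 1319.9, 682 and 404 RPKM in the d15 libraries, against 384, 1413, 388 and 683 RPKM in the d0 libraries and overlapped. The epithelial markers Epcam, Aqp5 and Foxj1 averaged 0.103, 0.416 and 0.151 RPKM at d15 and 0.0563, 0.275 and 0.0405 RPKM at d0. Hopx, listed for alveolar epithelium, went the other way and fell, averaging 12.1 ± 2.51 RPKM at d15 and 21.7 ± 3.58 RPKM at d0 (adjusted p = 0.0472).

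All 3 tested erythroid genes had positive fold changes (46.7% of all entries), and Hba-a1 passed (0.608% of all entries rose). It had 4.63, 3.72, 6.74 and 17.2 RPKM in the d15 libraries, against 0.720, 1.51, 0.527 and 0.872 RPKM in the d0 libraries (2.06 ± 0.46, adjusted p = 0.0387), with d15 replicate 6 highest, and passed in 1 of the 8 fits. Hbb-bs was also highest in d15 replicate 6 and did not pass, with 3.70, 4.46, 7.24 and 17.1 RPKM in the d15 libraries, against 1.08, 1.92, 0.639 and 0.916 RPKM in the d0 libraries (adjusted p = 0.0623). Summed over the erythroid list the level was 9.12 to 37.7 RPKM at d15 and 1.29 to 3.71 RPKM at d0. Alpha-globin genes are near-identical copies, so counting could have split them. Whether these reads came from red cells was not tested.

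Myl7, an atrial myosin light chain that is also made in the muscle sleeve of pulmonary veins, was the largest fall. It had 1.06, 1.84, 1.04 and 1.15 RPKM in the d15 libraries, against 4.53, 10.7, 21.8 and 4.93 RPKM in the d0 libraries (-2.10 ± 0.48, adjusted p = 0.0458), so the d0 libraries ranged widely, with replicate 3 highest. Of 7 tested heart muscle genes 6 had negative fold changes, with a median of -0.51. The summed level of the list was 9.36 to 13.4 RPKM at d15 and 14.6 to 47.1 RPKM at d0, in which d0 replicate 3 was again highest, and their part in the fall was not tested. Myl4, the other atrial light chain, overlapped, averaging 5.17 ± 1.502 RPKM at d15 and 4.60 ± 0.935 RPKM at d0. The call for Myl7 held in 0 of the 8 fits that leave out a library.

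Gpnmb, a glycoprotein known from macrophages and melanocytes, had 1.99, 2.13, 2.18 and 1.93 RPKM in the d15 libraries, against 5.12, 8.05, 6.36 and 5.65 RPKM in the d0 libraries (-1.24 ± 0.26, adjusted p = 0.0326), with a narrow range at d15. The 7 tested macrophage genes had 3 positive and 4 negative fold changes, and the sum of the list, mostly Lyz2, was 53.8 to 147 RPKM at d15 and 31.9 to 57.1 RPKM at d0. Csf1r and Emr1 averaged under 0.1 RPKM in both groups, as did C1qa, C1qb and C1qc. Lyz2 had 44.9, 131, 55.5 and 56.9 RPKM in the d15 libraries, against 34.6, 33.7, 24.01 and 40.9 RPKM in the d0 libraries (adjusted p = 0.194); it is also made by alveolar epithelium. Summed leukocyte genes were level, at 31.9 to 39.3 RPKM at d15 and 32.3 to 40.3 RPKM at d0, nearly all of it Lcp1. Rhox5, a homeobox gene often active in mouse tumour lines, was at 0 to 0.421 RPKM at d15 and 0 to 0.196 RPKM at d0.

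Among the other large falls were receptors and secreted factors. Enho, the gene of the peptide adropin, which acts on endothelial nitric oxide synthesis, had 6.87, 8.26, 7.61 and 8.02 RPKM in the d15 libraries, against 18.6, 26.3, 23.4 and 15.04 RPKM in the d0 libraries (-1.30 ± 0.27, adjusted p = 0.0289). S1pr3, a receptor of sphingosine-1-phosphate, had 0.490, 1.07, 1.44 and 0.439 RPKM in the d15 libraries, against 2.12, 4.32, 2.06 and 2.44 RPKM in the d0 libraries (-1.003 ± 0.21, adjusted p = 0.0324). Tnfrsf11b, osteoprotegerin, a decoy receptor that endothelium secretes, had 2.48, 3.38, 2.96 and 2.09 RPKM in the d15 libraries, against 5.54, 8.09, 6.45 and 6.17 RPKM in the d0 libraries (-1.02 ± 0.22, adjusted p = 0.0326). C1qtnf2, a secreted C1q and TNF related protein, averaged 12.7 ± 1.23 RPKM at d15 and 29.4 ± 3.63 RPKM at d0 (-1.15 ± 0.27, adjusted p = 0.0458). Egflam, the matrix protein pikachurin, averaged 7.78 ± 2.25 RPKM at d15 and 19.3 ± 5.10 RPKM at d0 (-1.21 ± 0.28, adjusted p = 0.0458). Meox1, a homeobox transcription factor, averaged 4.77 ± 1.14 RPKM at d15 and 11.02 ± 3.52 RPKM at d0 (-1.04 ± 0.21, adjusted p = 0.0289). In these 6 genes every d15 library was below every d0 library, as the rule for naming them required.

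The other falls also parted the groups without overlap, which the naming rule required. Frrs1, a ferric reductase, had 3.96, 7.45, 8.07 and 5.88 RPKM in the d15 libraries, against 16.3, 22.5, 15.01 and 12.6 RPKM in the d0 libraries (-1.27 ± 0.22, adjusted p = 0.0151) and passed in 8 of the 8 fits. The cilium and microtubule genes Tekt5, Dnaic1 and Tppp3 fell by 1.36, 1.03 and 1.04. Tppp3, the most abundant of them, averaged 44.8 ± 10.4 RPKM at d15 and 93.4 ± 25.8 RPKM at d0. The GENCODE M21 spans of Dnaic1 (41569775-41638158) and Enho (41638144-41640324) overlap on chromosome 4, and sharing of reads was not tested. The transporter Slc22a23 fell by 1.13 and Ms4a8a, of the membrane-spanning 4A family, by 1.33. C030010F05Rik and Fam124b fell by 1.01 and 0.98, and AI836003 averaged 3.21 ± 0.568 RPKM at d15 and 8.89 ± 2.65 RPKM at d0 (-1.20 ± 0.25, adjusted p = 0.0289). Of the 20 falls named by size, Frrs1 and Tbxa2r passed in all 8 fits that leave out a library, and the other 18 in 0 to 4 of them.

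The genes with the firmest calls, those with the smallest p that passed in all 8 fits, included several not yet described. Slc3a2, the heavy chain of amino acid transporters and integrin partner CD98, had 639, 581, 567 and 633 RPKM in the d15 libraries, against 389, 296, 300.5 and 357 RPKM in the d0 libraries (0.86 ± 0.13, adjusted p = 0.0106). Man2a1, a mannosidase of N-glycan processing in the Golgi, had 10.4, 10.9, 13.0 and 9.28 RPKM in the d15 libraries, against 6.14, 6.69, 5.89 and 6.02 RPKM in the d0 libraries (0.72 ± 0.10, adjusted p = 0.00317). Armcx4 averaged 6.61 ± 1.10 RPKM at d15 and 3.12 ± 0.549 RPKM at d0 (0.88 ± 0.15, adjusted p = 0.0106). Leo1, a subunit of the PAF complex of transcription elongation, had 11.5, 7.36, 5.56 and 7.48 RPKM in the d15 libraries, against 15.1, 14.2, 17.8 and 16.3 RPKM in the d0 libraries (-0.95 ± 0.15, adjusted p = 0.0106). Fkbp11, a prolyl isomerase of the endoplasmic reticulum, averaged 11.3 ± 1.81 RPKM at d15 and 22.1 ± 4.53 RPKM at d0 (-0.90 ± 0.14, adjusted p = 0.0106). Gprc5a, a receptor induced by retinoic acid, averaged 7.52 ± 1.75 RPKM at d15 and 15.1 ± 2.97 RPKM at d0 (-0.92 ± 0.15, adjusted p = 0.0106). Rnmtl1, a methyltransferase of mitochondrial ribosomal RNA, averaged 2.78 ± 0.470 RPKM at d15 and 5.35 ± 0.758 RPKM at d0 (-0.75 ± 0.12, adjusted p = 0.0106). In all 7 the groups did not overlap, as the naming rule required.

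Matrix genes had 1 call among 20 tested (1.18% of all entries were called). Sparcl1, a matricellular glycoprotein of vessels, rose to 5.03 ± 0.781 RPKM at d15, against 2.52 ± 0.492 RPKM at d0 (0.78 ± 0.17, adjusted p = 0.0406), and passed in 0 of the 8 fits (adjusted p up to 0.12). Sparc, the related matrix protein, averaged 6.14 ± 1.33 RPKM at d15 and 6.38 ± 0.968 RPKM at d0 and overlapped. Itgb1, a common integrin chain, averaged 22.4 ± 7.30 RPKM at d15 and 15.7 ± 6.59 RPKM at d0 and overlapped.

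Several pathways had 0 members past the limma test in either direction, and their counts at an unadjusted p under 0.05 are given instead. By that measure 7.26% of all entries were higher and 9.19% lower, and counts near these shares are no result about a list. Of 26 TGF-beta and BMP genes, 6 were higher and 2 lower at an unadjusted p under 0.05, with a median of 0.15. Id1, a target of BMP signalling, averaged 325 ± 73.4 RPKM at d15 and 469 ± 27.4 RPKM at d0 (adjusted p = 0.0932, and 0.0416 without d36). Of 15 VEGF and angiopoietin genes, 5 were higher and 1 lower, with a median of 0.16. Flt1, a VEGF receptor that also acts as a decoy, averaged 54.9 ± 14.7 RPKM at d15 and 27.9 ± 5.72 RPKM at d0 (adjusted p = 0.0893, and 0.0213 without d36). Of 23 genes of hypoxia and glycolysis, 6 were higher and 0 lower, with a median of 0.17, and the summed level of the list was 1586 to 1713 RPKM at d15 and 1114 to 1543 RPKM at d0. Epas1, the hypoxia factor HIF-2 alpha of endothelium, averaged 685 ± 92.2 RPKM at d15 and 397 ± 94.4 RPKM at d0 (adjusted p = 0.15, and 0.0165 without d36). Id1, Flt1 and Epas1 were named after their values were seen, and none of them overlapped between the groups.

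The chemokine, NF-kB, type I interferon and MHC lists had 0 calls too. Of 12 chemokines and scavengers 2 were higher and 0 lower at an unadjusted p under 0.05, with a median of 0.34, and of 15 NF-kB subunits and inhibitors 2 were higher and 1 lower, with a median of 0.12. Nfkbiz, an atypical inhibitor protein that also serves as a coactivator, averaged 15.8 ± 5.98 RPKM at d15 and 5.25 ± 0.358 RPKM at d0 with no overlap (adjusted p = 0.111, and 0.00188 without d36), and it was named after its values were seen. Of 21 type I interferon genes 2 were higher and 0 lower, with a median of -0.15, and 16 of the 21 fold changes were negative. Of 15 genes of MHC and antigen presentation 0 were higher and 1 lower.

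Growth and housekeeping lists were close to 0. Among 22 cell cycle genes 0 passed at an adjusted p of 0.05 or at an unadjusted p under 0.05 with limma, and the median was 0.02; many averaged under 1 RPKM. Mki67, a marker of dividing cells, averaged 0.0725 ± 0.0493 RPKM at d15 and 0.0522 ± 0.0292 RPKM at d0, and Top2a averaged 0.173 ± 0.0975 RPKM at d15 and 0.116 ± 0.0540 RPKM at d0. Of 27 ribosomal protein genes 1 was higher and 0 lower unadjusted, with a median of 0.09, and of 22 nuclear genes of oxidative phosphorylation 0 were higher and 3 lower, with a median of -0.05. Of 13 genes of cholesterol synthesis and uptake, 11 had negative fold changes, with a median of -0.17, and 1 was lower at an unadjusted p under 0.05. Of 14 genes of fatty acid and lipid handling 3 were higher and 1 lower, with a median of 0.12. Of 17 Notch genes 3 were higher and 2 lower, and of 17 junction genes 3 were higher and 1 lower. A missed threshold does not show that these genes were equal.

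The later groups were used to ask whether the d15 levels differed from those after resection (d22) and with metastases (d36). This contrast within the same fit tests the difference between the effects, since the d0 libraries cancel. In all, 151 entries were higher (1.06%) and 286 lower (2%) at d15 than at d22, and 234 were higher (1.64%) and 1411 lower (9.87%) at d15 than at d36. This split depended on scaling: 34.6% of the calls against d22 were higher at d15, and 59.2% with equal library medians; against d36 it was 14.2%, 55.1% with equal medians and 42.3% with quantile normalization. The title of d36 replicate 1 names an earlier day than its time point field, and the field was used.

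The genes below were chosen for their difference between d15 and d0, and the d15 libraries enter both contrasts. Lrg1 had 67.2, 112, 57.6 and 64.8 RPKM at d22, and the d15 level exceeded it by 1.99 ± 0.48, adjusted p = 0.0352. At d36 Lrg1 ranged from 48.8 to 499 RPKM, and the difference was 1.01 ± 0.48, adjusted p = 0.19. Clca1 averaged 4.09 ± 1.02 RPKM at d22, under d15 by 1.57 ± 0.24, adjusted p = 0.00264. At d36 it averaged 9.69 ± 3.55 RPKM, with a difference of 0.54 ± 0.24, adjusted p = 0.153. Dbp averaged 1.16 ± 0.272 RPKM at d22 and 2.97 ± 2.27 RPKM at d36, and the d15 level exceeded both, d22 by 1.91 ± 0.33, adjusted p = 0.00508, and d36 by 1.19 ± 0.33, adjusted p = 0.0281. Per3 exceeded d22 by 0.96 ± 0.19, adjusted p = 0.0128, and d36 by 0.65 ± 0.19, adjusted p = 0.0368.

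Slc3a2, Tha1 and Scgb3a1 were likewise above both later groups. For Slc3a2 the difference was 0.87 ± 0.13, adjusted p = 0.00273, from d22, and 0.60 ± 0.13, adjusted p = 0.00886, from d36. For Tha1 it was 0.93 ± 0.18, adjusted p = 0.0095, from d22, and 0.78 ± 0.18, adjusted p = 0.00983, from d36. Leo1 was below both, with a difference of -0.93 ± 0.15, adjusted p = 0.00317, from d22, and of -0.62 ± 0.15, adjusted p = 0.0124, from d36. Fam124b was below d22, where it averaged 17.7 ± 2.50 RPKM (-1.17 ± 0.18, adjusted p = 0.00314), with a difference from d36 of -0.23 ± 0.18, adjusted p = 0.475.

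Apln and Tbxa2r had means at d22 and d36 that were nearer to d15 than to d0. Apln averaged 6.38 ± 2.20 RPKM at d22 and 11.01 ± 7.06 RPKM at d36, with a difference of -0.13 ± 0.35, adjusted p = 0.884, from d22, and of -0.68 ± 0.35, adjusted p = 0.234, from d36. Tbxa2r averaged 8.83 ± 1.24 RPKM at d22 and 7.79 ± 3.00 RPKM at d36, with a difference of -0.16 ± 0.20, adjusted p = 0.716, from d22, and of 0.054 ± 0.20, adjusted p = 0.899, from d36. Vwf lay between d15 and d0 at both later times: it averaged 71.2 ± 12.9 RPKM at d22 and 61.6 ± 16.4 RPKM at d36, with a difference of 0.42 ± 0.22, adjusted p = 0.287, from d22, and of 0.66 ± 0.22, adjusted p = 0.0595, from d36. These misses of the threshold do not show that the levels were equal. Gpnmb, Gprc5a, Frrs1 and Plau were lower at d15 than at d36 (-1.35 ± 0.26, adjusted p = 0.00392, -1.15 ± 0.15, adjusted p = 0.000273, -1.09 ± 0.22, adjusted p = 0.00472 and -1.66 ± 0.19, adjusted p = 0.000124), and their adjusted p against d22 was 0.803, 0.67, 0.936 and 0.931.

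**Figure D5:**
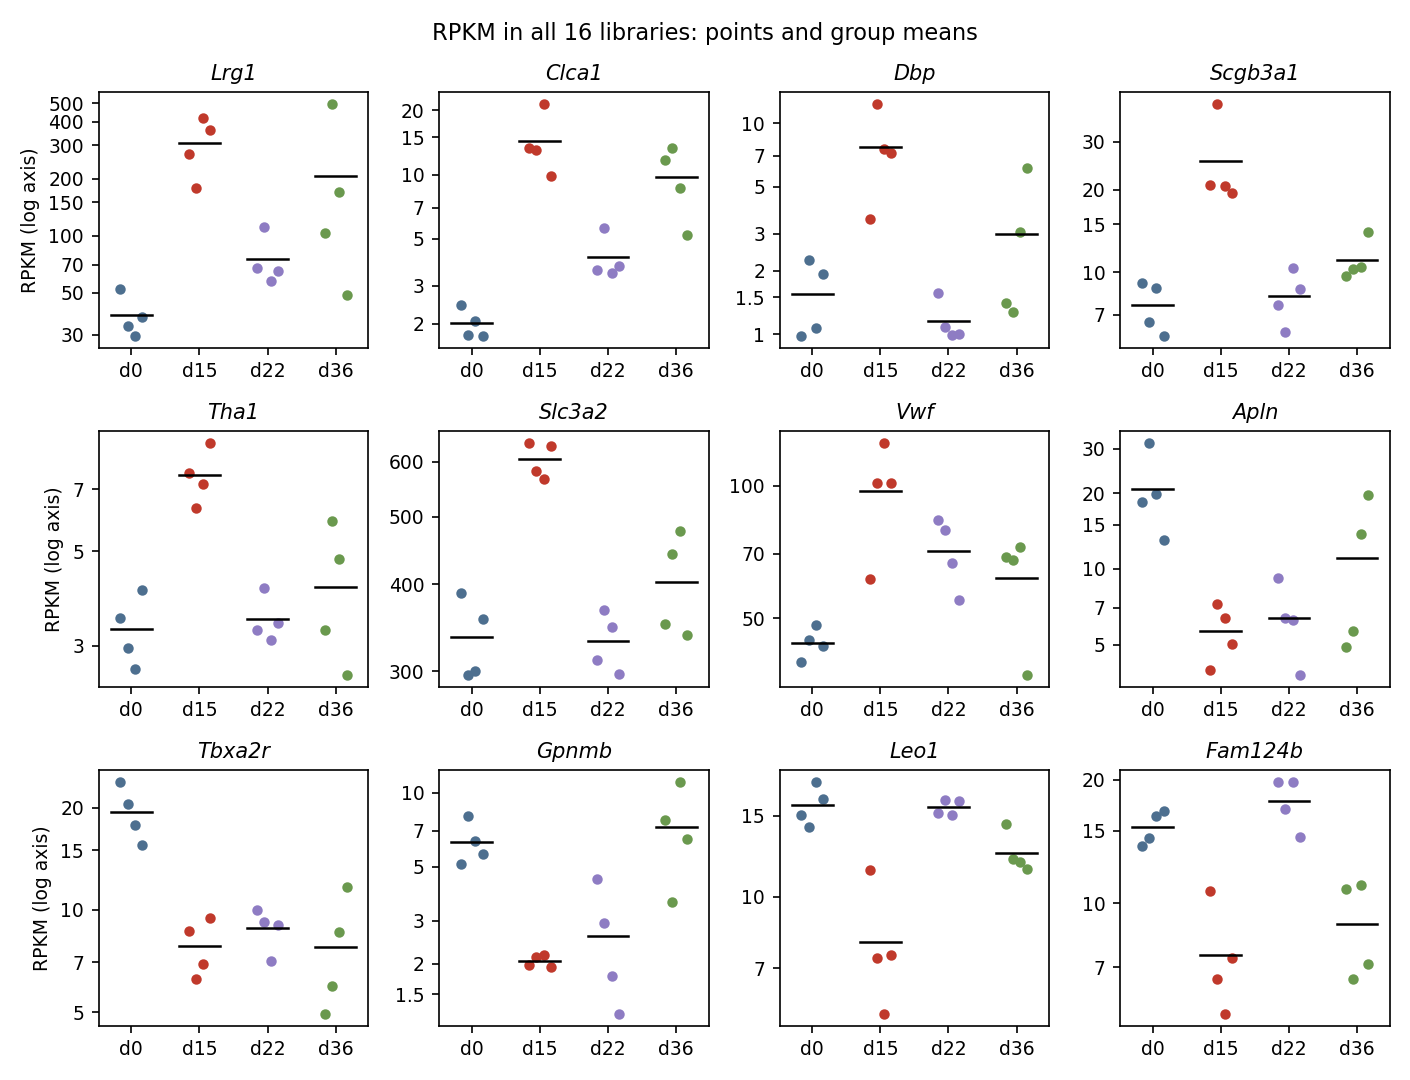
RPKM (vertical axes, logarithmic) of 12 genes in the 16 libraries at d0, d15, d22 and d36 (horizontal axes), with points for libraries and black lines for the means of 4. Lrg1 stands at 179 to 418 RPKM at d15 and 57.6 to 112 RPKM at d22, and Leo1 at 5.56 to 11.5 RPKM at d15, below all libraries of the other groups.

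In the authors' deposited table, the d15 columns hold log2 fold changes with adjusted p-values, and the header names no comparison group. Of 16368 entries with a p-value there, 831 were higher (5.08%) and 463 lower (2.83%) at an adjusted p of 0.05. For Lrg1 the authors' deposited table gives 2.95 with an adjusted p of 1.1e-39, and for Apln it gives -1.74 with 3.74e-10. For Darc the authors' deposited table gives 3.80, against 1.78 here, where 1 RPKM is added before the logarithm.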

How the data were processed

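The authors deposited 1 table with RPKM per library. The submitters' processing notes name STAR, DESeq2 and the mouse build mm10, with no version or role; the annotation, transcript lengths and filters are not given in the labels. The table also holds the authors' log2 fold changes and adjusted p-values, which were copied and not recomputed. RPKM was not turned back into counts, because only 367 of 4296 low entries gave whole reads (within 0.1 read) in all 16 libraries, so no count test was run and depths are approximate. Values were set to log2(RPKM + 1) and fitted with limma 3.58.1 (R 4.3.3, intensity trend) over the 16 libraries with 1 term per group. Entries had to reach 1 RPKM in 4 libraries, and p-values were adjusted by Benjamini-Hochberg over 14303 entries. Standard errors are limma's, spreads beside means are SDs (n = 4 each), and p-values are two-sided. The fit was tested on simulated data.

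Genes named are the 20 largest rises and 20 largest falls among called symbols with a mean of at least 2 RPKM and no overlap between groups, the 15 with the smallest p among those passing in all 8 leave-one-out fits, and from each list up to 4 members that passed and 3 abundant ones that did not. Not every gene given by this rule is described. Most other names are marked in the text, but Pecam1, Ptgis, Sparc, Itgb1, Mki67 and Top2a are not. The lists and members were chosen with earlier results of these data known. Alternatives were other pseudocounts, filters, scalings, weights, subsets of libraries, a replicate block and, added after seeing the data, removal of a length and GC trend (GENCODE M21). Upstream sequences are from RefSeq.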

Additional observations from a re-analysis of the deposited data

Results flagged for a closer look

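For 114 of the named genes and the 2 groups, 228 combinations of 4 libraries each were examined for a library far from the others. Dixon's test at its 95% level marked 14, and chance marks about 1 in 20 groups. Other named genes, such as Pecam1, Il6st, Tnfrsf1a and Il1a, were not among the 114. At d15, replicate 4 stood apart for Scgb3a1 (41.3 RPKM), Sftpc (1830 RPKM to 3 digits), Sftpa1 (61.4 RPKM) and Lyz2 (131 RPKM), all high, and for Myl7 (1.84 RPKM). Replicate 3 stood apart for Sparcl1 (6.20 RPKM, high) and Vcam1 (10.8 RPKM, low), and replicate 5 for Ier3 (842 RPKM, high) and Cd68 (3.08 RPKM). At d0, replicate 1 stood apart for Osmr (10.9 RPKM, high), Gm13889 (3.52 RPKM) and Egfl7 (1840 RPKM to 3 digits), replicate 2 for S1pr3 (4.32 RPKM, high) and replicate 3 for Lcp1 (31.4 RPKM, low).

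Among the same 114 genes, the d15 effect differed from that of a later group in 45 contrasts. These were tested in the limma fit and are given as d15 minus the later group on the log2(RPKM + 1) scale. Of these, 28 were in genes that passed between d15 and d0. Against d22, d15 was higher for Nr1d2 (2.19), Lrg1 (1.99), Dbp (1.91), Clca1 (1.57), Scgb3a1 (1.48), Per3 (0.96), Tha1 (0.93), Slc3a2 (0.87), Serinc3 (0.85) and Il4ra (0.80). It was lower for Fam124b (-1.17), Leo1 (-0.93) and Sparcl1 (-0.66). Against d36, d15 was higher for Dbp (1.19), Scgb3a1 (1.07), Tha1 (0.78), Per3 (0.65) and Slc3a2 (0.60). It was lower for Plau (-1.66), Gpnmb (-1.35), Sparcl1 (-1.28), Gprc5a (-1.15), Frrs1 (-1.09), Tnfrsf11b (-0.88), AI836003 (-0.80), C030010F05Rik (-0.71), Leo1 (-0.62) and Unc5b (-0.60). The other 17 contrasts were in genes that did not pass between d15 and d0. Against d22, d15 was higher for Nr1d1 (4.57) and Zbtb16 (1.27) and lower for Arntl (-1.44). Against d36, d15 was higher for Zbtb16 (2.07), Scgb1a1 (1.84), Sftpc (1.67), Sftpa1 (1.43), Lbp (0.93), Per1 (0.90), Ace (0.62), Gm129 (0.50) and Ephb4 (0.49). It was lower for Rhox5 (-5.79), Mt1 (-3.44), Cd68 (-1.44), Hsp90ab1 (-0.87) and Arntl (-0.81). The genes that passed were chosen for their difference between d15 and d0, and the d15 libraries enter both contrasts.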

How the results depend on the processing

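The counts of entries higher and lower at d15 than d0, 87 and 82, were 56 and 43 with no filter on low values, 262 and 216 with only the d15 and d0 libraries, 342 and 310 without d36 and 370 and 367 with sample quality weights. Leaving out 1 library gave 14 to 41 higher and 10 to 48 lower. Other pseudocounts, the filter on the 8 libraries, equal medians, quantile normalization and the removed length and GC trend kept both within 1.5 times. Against d22, 151 and 286 became 384 and 811 without d36, 232 and 160 with equal medians and 429 and 852 with weights; leaving out 1 library gave 43 to 213 and 80 to 281. Against d36, 234 and 1411 became 835 and 681 with equal medians, 574 and 783 with quantile normalization and 533 and 2325 with weights; leaving out 1 library gave 118 to 227 and 852 to 1331. Without the d22 and d36 libraries no value against d22 or d36 could be had, nor one against d36 without its libraries. With the replicate block, d15 against d0 gave 79 and 23, d15 against d22 gave 258 and 477, and d15 against d36 gave 27 and 438. The 2 shared numbers of d15 and d0 had deviation correlations of -0.091 and 0.21, so the numbers were not taken to pair libraries. Of the same 114 genes, 27 lost their call with no filter, 28 with the block, and Myl7, Tekt5, C1qtnf2 and Hopx with the length and GC trend removed. Of the called ones, 0 changed direction under the alternatives run. Levels near 1 RPKM and d0 values near 0, as for Darc, are limited by depth, and 4 libraries a group limit the precision.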

Other observations

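Some called genes outside the naming rule or its size limits also have known roles in vessels, and they were chosen here after their values were seen. Tnfrsf1a, the TNF receptor 1, averaged 40.4 ± 0.158 RPKM at d15 and 26.5 ± 1.93 RPKM at d0 (0.59 ± 0.10, adjusted p = 0.0151), and it was also higher at d15 than at d22 (adjusted p = 0.00188) and d36 (adjusted p = 0.0131). It passed in 7 of the 8 fits that leave out a library. Cysltr1, a receptor of cysteinyl leukotrienes, averaged 1.04 ± 0.291 RPKM at d15 and 0.354 ± 0.0779 RPKM at d0 (0.58 ± 0.14, adjusted p = 0.0473). Chrm2, a muscarinic acetylcholine receptor, averaged 4.41 ± 0.528 RPKM at d15 and 1.88 ± 0.240 RPKM at d0 (0.91 ± 0.21, adjusted p = 0.0464). Abcg2, an efflux transporter of drugs and urate at vessel barriers, averaged 14.97 ± 2.77 RPKM at d15 and 8.27 ± 0.869 RPKM at d0 (0.77 ± 0.15, adjusted p = 0.026). Colec12, a scavenger receptor of vascular endothelium, averaged 5.77 ± 0.955 RPKM at d15 and 2.43 ± 0.215 RPKM at d0 (0.97 ± 0.20, adjusted p = 0.0293).

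Acer2, an alkaline ceramidase that releases sphingosine, averaged 79.2 ± 11.6 RPKM at d15 and 41.0 ± 5.15 RPKM at d0 (0.93 ± 0.19, adjusted p = 0.0287), and Sptlc2, a subunit of the enzyme that starts sphingolipid synthesis, averaged 47.4 ± 6.98 RPKM at d15 and 29.6 ± 3.45 RPKM at d0 (0.65 ± 0.14, adjusted p = 0.0347). Il1a, the cytokine interleukin-1 alpha, fell, averaging 0.984 ± 0.384 RPKM at d15 and 2.74 ± 0.453 RPKM at d0 (-0.93 ± 0.19, adjusted p = 0.0287), with a difference from d36 as well (adjusted p = 0.0206). Spon2, a secreted matrix protein, averaged 0.288 ± 0.203 RPKM at d15 and 1.61 ± 0.355 RPKM at d0 (-1.02 ± 0.18, adjusted p = 0.0151) and passed in 7 of the 8 fits. Pmp22, a membrane protein known from myelin, averaged 143 ± 16.1 RPKM at d15 and 269 ± 50.1 RPKM at d0 (-0.89 ± 0.17, adjusted p = 0.0216). The retinol-related enzyme gene Dhrs3 averaged 28.6 ± 4.86 RPKM at d15 and 49.6 ± 8.90 RPKM at d0 (-0.77 ± 0.16, adjusted p = 0.0324). Orai2, a store-operated calcium channel subunit, averaged 2.17 ± 0.411 RPKM at d15 and 4.06 ± 0.681 RPKM at d0 (-0.68 ± 0.16, adjusted p = 0.0458).

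Among epithelial markers, Bpifa1, secreted in the airway, averaged 15.6 ± 11.8 RPKM at d15 and 1.804 ± 1.92 RPKM at d0 and overlapped (adjusted p = 0.0777). It had the largest fold change of the lung epithelium list and was not named by level. Sftpa1, of surfactant, averaged 35.9 ± 17.0 RPKM at d15 and 14.03 ± 4.46 RPKM at d0 without overlap (adjusted p = 0.0765). Sftpa1 was named by level, as were Lyz1 and Tagln. Lyz1 averaged 8.62 ± 3.34 RPKM at d15 and 2.68 ± 2.16 RPKM at d0 and overlapped, and Tagln, of smooth muscle, averaged 11.7 ± 4.59 RPKM at d15 and 7.91 ± 2.01 RPKM at d0 and overlapped.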
